A study of Mus musculus with 6 samples.

Results

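The genes described here are 10 genes of fibroblast growth factor (FGF) signalling, measured by RNA-seq in the cochlear duct of mice at postnatal day 8 (P8). They were chosen by name as the rows whose symbol is *Fgfr1*, *Fgfr2*, *Fgfr3*, *Fgf1*, *Fgf10*, *Spry1*, *Spry2*, *Spry4*, *Etv4* or *Etv5*, and all 10 were found among the 14865 genes listed and among the 14455 genes tested. The study sequenced 3 libraries of *Gfi1*+/+ mice and 3 of *Gfi1*cre/+ mice, all P8 mice of the C57BL/6 strain. In *Gfi1*cre/+ mice a single copy of *Gfi1*, which encodes a transcriptional repressor needed by hair cells (HCs), carries Cre recombinase in place of its first exons, so that Cre follows the *Gfi1* promoter in HCs and in other *Gfi1*-expressing cells such as immune cells. *Gfi1*+/+ mice carry neither Cre nor a disrupted copy. A *Gfi1*+/+ library came from a single mouse (2 cochleae), whereas 3 mice (6 cochleae) were pooled for a *Gfi1*cre/+ library, so the replicates of the genotypes are not of the same kind. The comparison asks whether losing a copy of *Gfi1* is accompanied by another level of these FGF genes before hearing begins.

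FGF ligands bind receptor tyrosine kinases at the cell surface with heparan sulfate as a co-factor, and the receptors signal through adaptors, RAS and the ERK kinases. The pathway switches on its own brakes and readouts, among them the Sprouty proteins, which inhibit receptor signalling, and the ETS transcription factors ETV4 and ETV5. In the inner ear FGF10 and FGFR2 take part in shaping the otic epithelium, FGFR1 is needed for the sensory progenitors, and FGFR3 acts in the differentiation of pillar cells, the supporting cells that separate inner from outer HCs. SPRY2 limits that signal, and its loss in mice changes the fate of supporting cells and impairs hearing.

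Values are in normalized reads, that is, the reads on a gene scaled by a factor of its library, and are listed in the order of replicates 1, 2 and 3. The libraries held between 13603908 and 19359753 reads on genes, with each *Gfi1*cre/+ library deeper than each *Gfi1*+/+ library. A member had between 198 and 6494 reads in a library, and none was near the 3 reads that a count of 0 allows. All 15 of the HC markers and 13 of the 14 supporting and pillar cell markers looked for were listed with reads in every library, as were markers of mesenchyme and fibrocytes (11 of 11), stria vascularis (10 of 10), neurons (11 of 12) and bone and cartilage (10 of 10), so the tissue is a mixture of cell types. *Gfi1* itself, whose value sums over the whole gene, was at 147, 160 and 152 normalized reads in *Gfi1*+/+ and at 136, 130 and 139 in *Gfi1*cre/+. *Gfi1*+/+ replicate 1 stood apart in neuron markers, with a sum of 12682 normalized reads. The sum was 5048 and 6563 in the other *Gfi1*+/+ libraries and 4501 to 4872 in *Gfi1*cre/+. Not every neuron marker followed it, since *Gata3* had 3106, 3259 and 2981 in *Gfi1*+/+ and 2977, 2794 and 2587 in *Gfi1*cre/+. The median log2 fold change of the neuron markers, *Gfi1*cre/+ against *Gfi1*+/+, was -0.90. In bulk tissue, fewer cells of a type and less RNA per cell cannot be told apart. The paper describes HCs as a small share of inner ear cells, so a difference confined to HCs would be diluted in these values. Y-linked genes summed to between 794 and 1621 normalized reads in *Gfi1*cre/+ and to at most 2.10 in *Gfi1*+/+, so sex and genotype cannot be told apart in any comparison below.

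None of the 10 FGF genes passed limma's test between genotypes. With Benjamini-Hochberg adjustment over all 14455 genes, 0 of 10 had an adjusted p-value under 0.05, and each member's adjusted p was 0.999. Of all genes 0.0277% passed, and these were the 4 Y-linked genes *Ddx3y*, *Eif2s3y*, *Kdm5d* and *Uty*, which mark sex. At an unadjusted p-value under 0.05 there were also 0 of 10, against 3.04% of all genes. edgeR's quasi-likelihood test and DESeq2 on the recovered reads likewise gave 0 of 10, adjusted or not. Of all genes, 3.64% had an unadjusted p under 0.05 with edgeR and 2.59% with DESeq2. At shares this low, 0 of 10 does not show that the members are unchanged. The libraries of the genotypes overlapped in every member (0 of 10 apart, against 7.52% of all genes). There were 5 members higher and 5 lower in *Gfi1*cre/+, their median log2 fold change was 0.0089, and that of all genes tested was -0.00012. The absolute log2 fold change was under 0.1 in 9 of 10 members and in 70.6% of all genes tested.

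**Figure D1:**
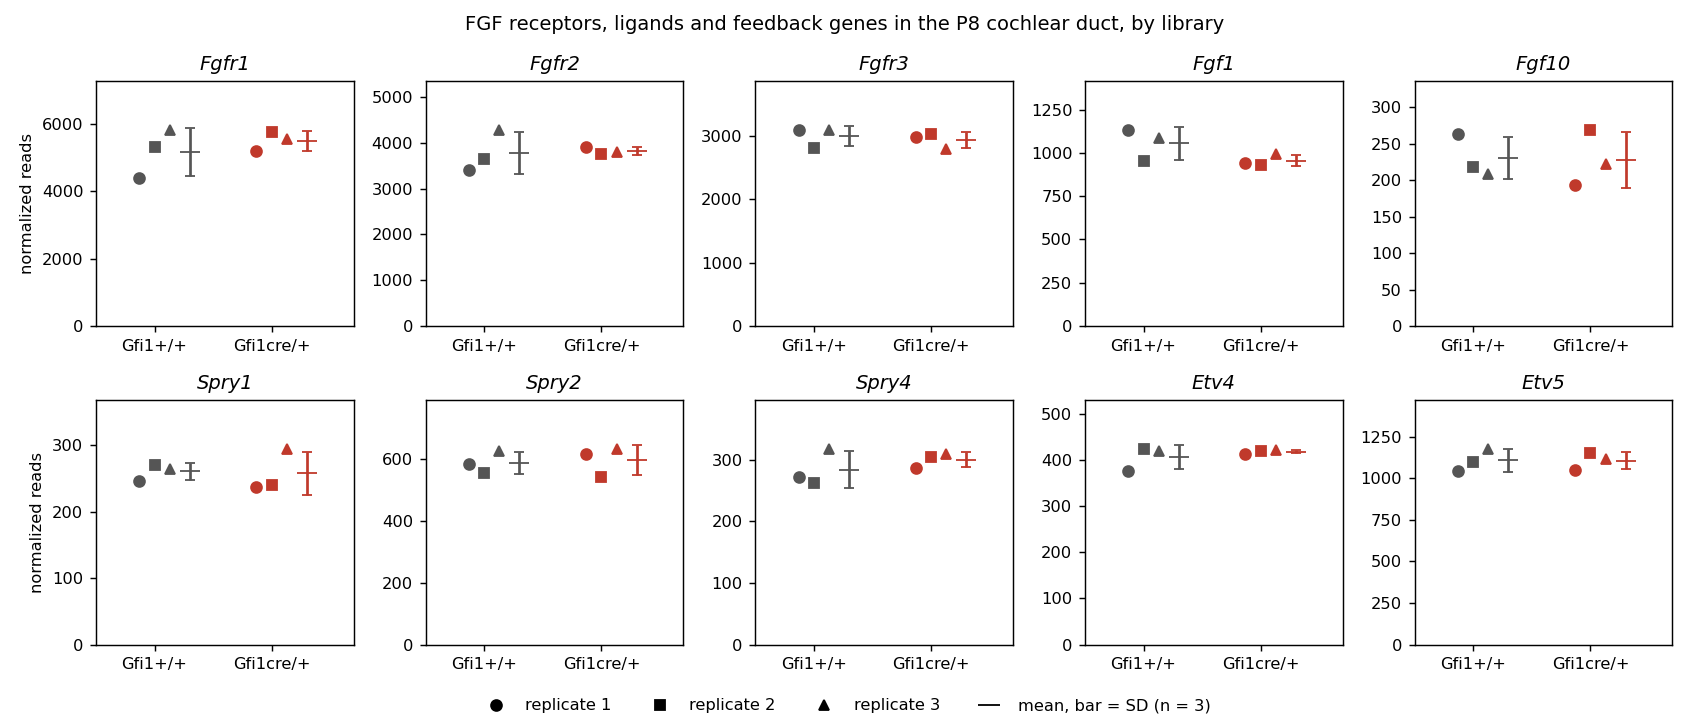
Normalized reads (y axes, from 0) of the 10 FGF genes in each library of *Gfi1*+/+ (grey) and *Gfi1*cre/+ (red), with a symbol for each replicate and the mean and SD of 3 libraries at the side. The genotypes overlap in all 10 panels, and *Fgf1* comes closest to separation, with *Gfi1*cre/+ replicate 3 above *Gfi1*+/+ replicate 2.

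The receptors were the most abundant members. *Fgfr1* (ENSMUSG00000031565, chr8:25518759-25575718 on the plus strand, 18 exons; positions here and below are those of the principal transcript of GENCODE M21 on GRCm38) had 4402, 5298 and 5814 normalized reads in *Gfi1*+/+ and 5185, 5765 and 5538 in *Gfi1*cre/+. *Gfi1*+/+ replicate 1 was the lowest of the 6 libraries and *Gfi1*+/+ replicate 3 the highest, with the *Gfi1*cre/+ libraries between them. The means were 5171 ± 715 in *Gfi1*+/+ and 5496 ± 292 in *Gfi1*cre/+ (SD, n = 3). The log2 fold change was 0.10 with a standard error of 0.0971 (limma, adjusted p = 0.999), and its 95% interval ran from -8.21% to 24.4% in *Gfi1*cre/+ relative to *Gfi1*+/+. The sign rested on a single library, since without *Gfi1*+/+ replicate 1 the log2 fold change was -0.016.

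*Fgfr2* (ENSMUSG00000030849, chr7:130163709-130266191 on the minus strand, 18 exons) had 3397, 3643 and 4277 normalized reads in *Gfi1*+/+ and 3904, 3750 and 3801 in *Gfi1*cre/+. Again the extremes were *Gfi1*+/+ replicates 1 and 3, and the *Gfi1*cre/+ libraries lay close together. The means were 3772 ± 454 and 3818 ± 78.8 (SD, n = 3). The log2 fold change of *Fgfr2* was 0.024 (standard error 0.0818), with a 95% interval from -10.5% to 15.6%, and it was -0.048 without *Gfi1*+/+ replicate 1.

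*Fgfr3* (ENSMUSG00000054252, chr5:33721724-33737068 on the plus strand, 18 exons), the receptor of pillar cells and other supporting cells, had 3090, 2811 and 3094 normalized reads in *Gfi1*+/+ and 2987, 3029 and 2801 in *Gfi1*cre/+. The libraries were interleaved, and *Gfi1*+/+ replicate 2 and *Gfi1*cre/+ replicate 3 were the low ones. The means were 2998 ± 162 and 2939 ± 121 (SD, n = 3). Its log2 fold change of -0.028 had the smallest standard error of the members (0.0607), and the 95% interval ran from -10.8% to 7.86%. Supporting and pillar cell markers, a list that includes *Fgfr3*, summed to between 66228 and 70776 normalized reads in *Gfi1*+/+. In *Gfi1*cre/+ the sum lay between 68311 and 70930. *Gjb2* was the largest part of that sum, and not every marker was as steady. *Tecta* had 5506, 9628 and 3299 normalized reads in *Gfi1*+/+ and 4656, 7597 and 5031 in *Gfi1*cre/+. *Sox2* had 647, 686 and 461 in *Gfi1*+/+ and 490, 566 and 551 in *Gfi1*cre/+.

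The order of the libraries was not the same for each receptor. *Fgfr1* and *Fgfr2* were lowest in *Gfi1*+/+ replicate 1 and highest in *Gfi1*+/+ replicate 3, and so were the sums of bone and cartilage markers, at 402892 and 524102 normalized reads. The sum of mesenchyme and fibrocyte markers was 195908, 215600 and 231176 normalized reads in *Gfi1*+/+, and lay between 223375 and 231009 in *Gfi1*cre/+. *Fgfr3* did not share this order, since *Gfi1*+/+ replicate 1 was among its highest libraries. The sums rest largely on their most abundant genes, and not every marker followed them. *Col2a1*, the largest part of the bone and cartilage sum, had 274391, 332150 and 375917 normalized reads in *Gfi1*+/+, whereas *Matn1* had 513, 617 and 474. In the mesenchyme list *Col1a2* was lowest in *Gfi1*+/+ replicate 1, but *Dcn*, *Lum*, *Postn* and *Col3a1* were lowest in *Gfi1*+/+ replicate 3. The part of mesenchyme, bone and cartilage in the receptor values was not tested.

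**Figure D2:**
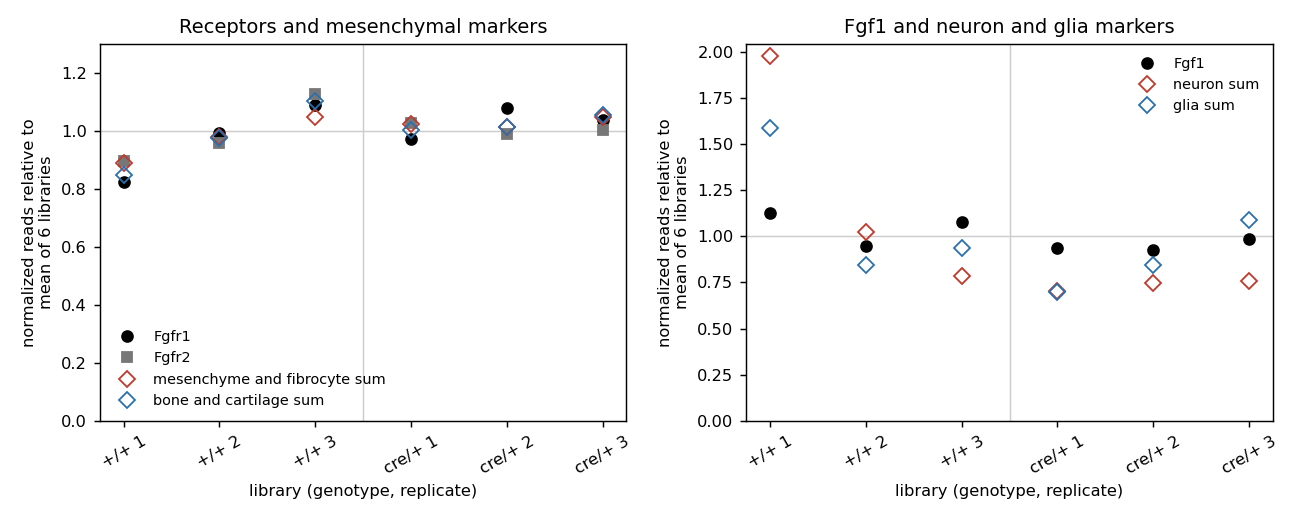
Normalized reads relative to the mean of the 6 libraries (y axes), by library (x axes), for *Fgfr1*, *Fgfr2* and the summed mesenchyme and fibrocyte and bone and cartilage markers on the left, and for *Fgf1* and the summed neuron and glia markers on the right. *Gfi1*+/+ replicate 1 is the lowest library for the receptors and both mesenchymal sums, and the highest for *Fgf1* and both the neuron and glia sums.

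Among the ligands, *Fgf1* showed the largest difference of any member and still did not pass the test. *Fgf1* (ENSMUSG00000036585, chr18:38838673-38918771 on the minus strand, 4 exons) encodes a ligand that can activate every FGF receptor and lacks a secretion signal. It had 1132, 951 and 1083 normalized reads in *Gfi1*+/+ and 942, 930 and 992 in *Gfi1*cre/+. *Gfi1*+/+ replicates 1 and 3 were above every *Gfi1*cre/+ library, whereas *Gfi1*+/+ replicate 2 lay within their range. The means were 1055 ± 93.8 and 955 ± 32.6 (SD, n = 3), a difference of -9.55%. The log2 fold change was -0.14 (standard error 0.0736, unadjusted p = 0.0871 and adjusted p = 0.999 in limma's test), with a 95% interval from -19.2% to 1.76%. An exact permutation test over the 6 libraries gave a two-sided p of 0.2, where 0.1 is the smallest that 3 against 3 allow. The log2 fold change kept its sign in each fit that left out a library, from -0.21 to -0.089, and without *Gfi1*+/+ replicate 2 it had an unadjusted p of 0.0116 in limma's test, which did not pass adjustment. The library with the most *Fgf1* was the one with the highest neuron sum and glia sum, the latter at 38100 normalized reads against 16697 to 26050 in the others, and the part of neuron and glia content in the *Fgf1* values was not tested.

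*Fgf10* (ENSMUSG00000021732, chr13:118714699-118792115 on the plus strand, 3 exons), a secreted ligand of FGFR2, had 264, 219 and 209 normalized reads in *Gfi1*+/+ and 193, 269 and 222 in *Gfi1*cre/+. The lowest and the highest library were both *Gfi1*cre/+. The means were 231 ± 29.5 and 228 ± 38.3 (SD, n = 3), and the log2 fold change of -0.022 had the largest standard error of the members, 0.137. Its 95% interval ran from -20.6% to 22.1%. Differences within it are compatible with these libraries, and the smallest detectable difference was not computed.

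The Sprouty genes, the inhibitors that FGF signalling switches on, gave no common direction. *Spry1* (ENSMUSG00000037211, chr3:37640080-37644598 on the plus strand) had 247, 271 and 265 normalized reads in *Gfi1*+/+ and 238, 241 and 295 in *Gfi1*cre/+. *Spry2* (ENSMUSG00000022114, chr14:105891947-105896819 on the minus strand) had 583, 556 and 626 in *Gfi1*+/+ and 615, 541 and 634 in *Gfi1*cre/+. *Spry4* (ENSMUSG00000024427, chr18:38586247-38601415 on the minus strand) had 272, 263 and 319 in *Gfi1*+/+ and 287, 305 and 309 in *Gfi1*cre/+. In *Spry1* and *Spry2* the *Gfi1*cre/+ libraries spanned the whole range of *Gfi1*+/+, and in *Spry4* they lay inside it. The means in *Gfi1*+/+ and *Gfi1*cre/+ were 261 ± 12.6 and 258 ± 32.5 for *Spry1*, 588 ± 35.1 and 597 ± 49.4 for *Spry2*, and 284 ± 29.99 and 300.7 ± 11.8 for *Spry4* (SD, n = 3). The log2 fold changes were -0.023 for *Spry1*, 0.019 for *Spry2* and 0.085 for *Spry4*. Their 95% intervals ran from -16.1% to 15.4% for *Spry1*, from -10.6% to 14.8% for *Spry2*, and from -8.12% to 22.4% for *Spry4*. Of these, *Spry4* had the same sign without each library in turn, with log2 fold changes from 0.031 to 0.17.

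*Etv4* and *Etv5*, ETS transcription factors whose transcripts follow FGF receptor activity, also did not pass the test. *Etv4* (ENSMUSG00000017724, chr11:101769742-101785310 on the minus strand, 13 exons) had 376, 425 and 419 normalized reads in *Gfi1*+/+ and 414, 420 and 422 in *Gfi1*cre/+. *Gfi1*+/+ replicate 1 was the low library and the other 5 lay together, giving means of 407 ± 26.4 and 419 ± 3.89 (SD, n = 3). *Etv5* (ENSMUSG00000013089, chr16:22381309-22439719 on the minus strand, 13 exons) had 1047, 1096 and 1179 in *Gfi1*+/+ and 1051, 1152 and 1113 in *Gfi1*cre/+. Its means of 1107 ± 67.0 and 1106 ± 50.9 (SD, n = 3) differed by less than the spread between replicates. The log2 fold change was 0.043 for *Etv4*, with a 95% interval from -7.85% to 15.2%, and -0.0016 for *Etv5*, with an interval from -9.80% to 10.6%. Over the 10 members the upper bounds of the intervals ran from 1.76% to 24.4% and the lower bounds from -20.6% to -7.85%.

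**Figure D3:**
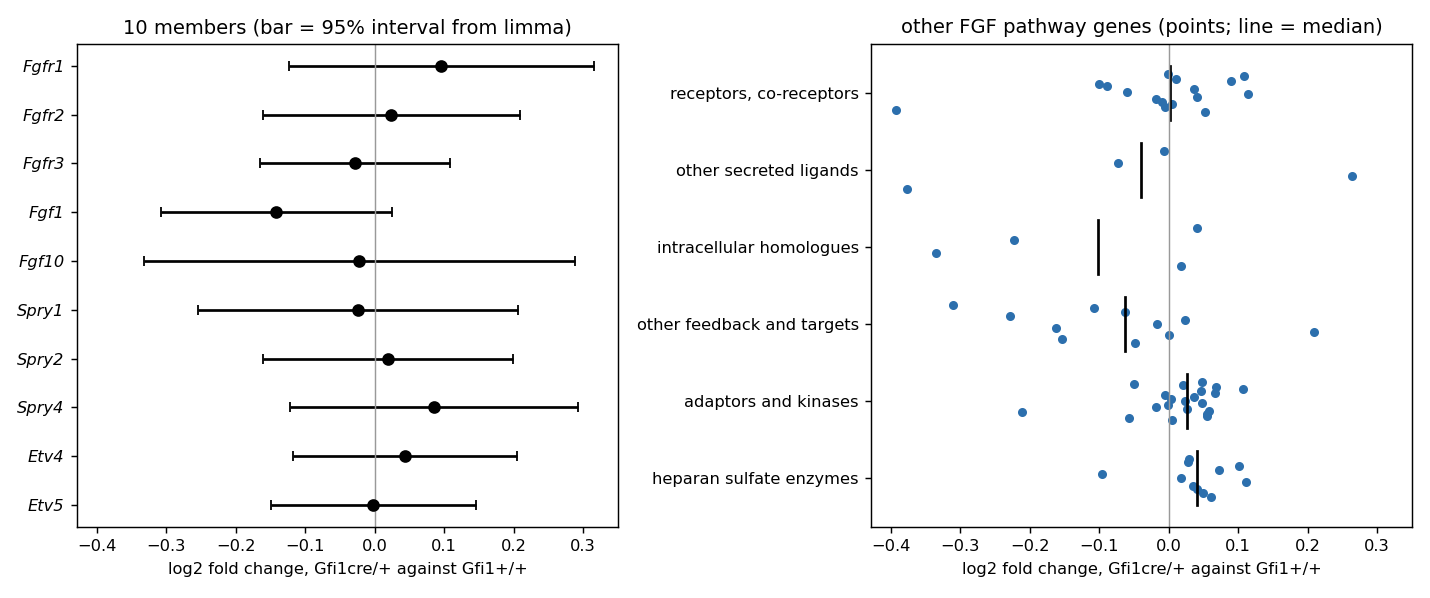
Log2 fold change, *Gfi1*cre/+ against *Gfi1*+/+ (x axes), of the 10 members with 95% intervals from limma on the left and of the other FGF pathway genes, by list and with the median of each list as a line, on the right. All 10 intervals include 0, with *Fgf1* at -0.14 the farthest from it.

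The spread between replicates was set beside the spread that counting error alone gives. *Gfi1*+/+ libraries were single mice and *Gfi1*cre/+ libraries were pools of mice, so the spreads of the genotypes are not of the same kind. For *Fgfr1* the coefficient of variation was 13.8% in *Gfi1*+/+ and 5.32% in *Gfi1*cre/+, against 1.46% and 1.28% from counting error alone. For *Fgfr2* it was 12.04% and 2.06%, against 1.71% and 1.53%. For *Spry1* in *Gfi1*+/+ it was 4.83%, and for *Etv4* in *Gfi1*cre/+ it was 0.929%, both less than the 6.50% and 4.64% that counting error gives on average. *Spry4* in *Gfi1*cre/+ was the remaining case, at 3.94% against 5.47%, and all other spreads were above their counting error. *Fgf10* had the widest spread in *Gfi1*cre/+, 16.8% against a counting error of 6.28%.

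**Figure D4:**
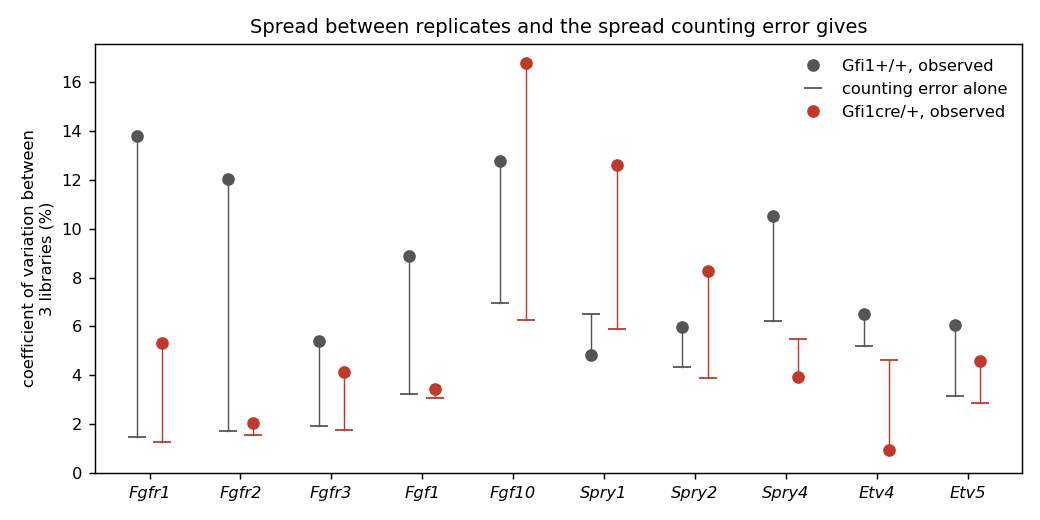
Coefficient of variation of normalized reads between the 3 libraries of a genotype (y axis, percent; points) and the value that counting error alone gives (dashes), for each member. In *Gfi1*+/+, *Fgfr1* and *Fgfr2* reach 13.8% and 12.04%, far above their counting error of 1.46% and 1.71%.

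Per transcript length the members fell in an order, in reads per kilobase of the principal transcript and of sequencing depth (RPKM). The level was 67.8 for *Fgfr2* and 63.1 for *Fgfr1* (means of 6 libraries), which overlapped each other, and 41.6 for *Fgfr3*, below both in every library. *Spry2* at 16.9, *Etv5* at 16.5 and *Fgf1* at 15.0 followed, each overlapping the next. *Etv4* had a level of 10.5 and *Spry1* of 5.56, each apart from its neighbours, and *Spry4* at 3.65 and *Fgf10* at 3.31 overlapped. In *Gfi1*+/+, *Fgfr2* was at percentile 92.5 of the genes tested and *Fgf10* at percentile 23.1. Of the summed RPKM of *Fgfr1* to *Fgfr4*, *Fgfr3* took 23.3% in *Gfi1*+/+ replicate 1 and 18.9% to 20.1% in the other 5 libraries, and *Fgfr1* took 28.1% in that library and 29.5% to 31.9% in the others. Among the Sprouty genes, *Spry2* took 64.7% ± 1.08 of their summed RPKM in *Gfi1*+/+ and 64.7% ± 1.95 in *Gfi1*cre/+ (SD, n = 3). *Etv5* took 61.5% ± 1.13 of the *Etv4* and *Etv5* sum in *Gfi1*+/+ and 60.8% ± 0.932 in *Gfi1*cre/+. The counted annotation was not named, so these levels per length depend on the transcript chosen here. Transcripts annotated on the opposite strand overlap 125 exonic bases of *Fgfr1*, 437 of *Fgfr3*, 69 of *Fgf10* and 577 of *Spry1*, and their reads cannot be told apart where strand was not used.

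**Figure D5:**
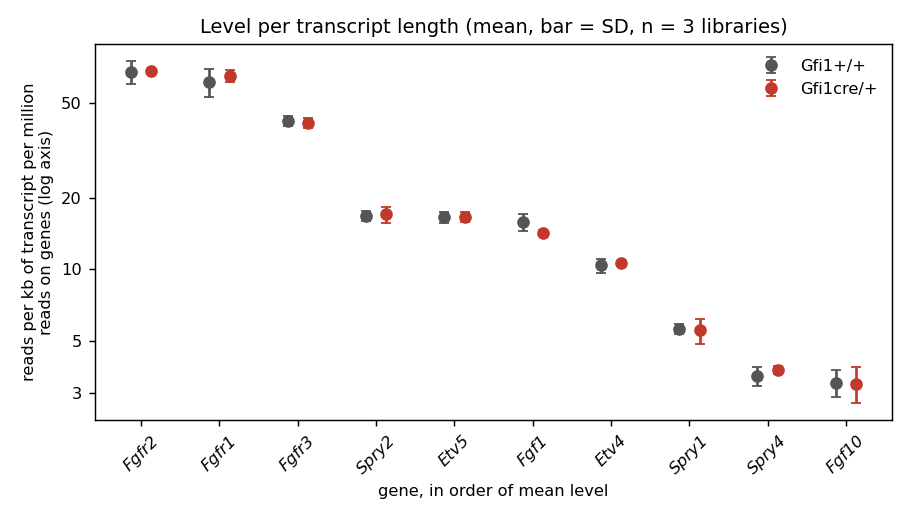
Level per transcript length (y axis, RPKM, log axis) of the members in order of their mean, with the mean and SD of 3 libraries for *Gfi1*+/+ (grey) and *Gfi1*cre/+ (red). The receptors lie between 41.1 and 68.2, and *Spry4* and *Fgf10* lie at 3.29 to 3.76.

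Over the 6 libraries the members did not follow a single pattern. Pearson's r of log2 values was 0.89 between *Fgfr1* and *Etv4*, 0.86 between *Fgfr1* and *Etv5* and 0.77 between *Fgfr1* and *Fgfr2*, and it was -0.72 between *Fgf1* and *Etv4* and -0.70 between *Fgfr3* and *Spry1*. Among the 10364 other genes whose mean reached 200 normalized reads, those most like *Fgfr3* included *Cep97* (r = 0.978) and *Wapal* (r = 0.977). With so few points, 15 of these genes had r above 0.95, and all genes share the depth and tissue make-up of a library, so these values are descriptions.

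In the rest of the pathway a single gene passed the test before adjustment and none after it. Of 81 other FGF pathway genes looked for, 67 were listed and all 67 were tested, of which 39 were higher and 28 lower in *Gfi1*cre/+, with a median log2 fold change of 0.017. With an adjusted p-value under 0.05 there were 0 of 67 by limma, and with an unadjusted one there was 1 of 67, against 3.04% of all genes. This was *Fgfbp3*, which encodes a binding protein that releases FGFs from the matrix. *Fgfbp3* had 63.0, 59.7 and 69.6 normalized reads in *Gfi1*+/+ and 51.4, 47.1 and 47.2 in *Gfi1*cre/+, so that each *Gfi1*cre/+ library was below each *Gfi1*+/+ library. Its log2 fold change was -0.39 (standard error 0.166, unadjusted p = 0.0424, adjusted p = 0.999, limma), and it rests on 50 to 66 reads in a library. *Fgfbp3* no longer had an unadjusted p under 0.05 when any of the 6 libraries was left out, nor with DESeq2. The genotypes did not overlap in 4 of the 67 genes, where 7.52% of all genes did not: among these, *Fgfbp3*, *Frs3* (a receptor adaptor) and *Fgf13* were lower in *Gfi1*cre/+, the last 2 picked out after their values were seen and with unadjusted p-values of 0.131 and 0.128 in limma's test.

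Among the 16 tested receptors and co-receptors, 8 were higher and 8 lower. *Fgfr4* and *Fgfrl1*, the remaining receptor and a receptor without a kinase domain, were picked out after their values were seen. *Fgfr4* had 1637, 2017 and 2252 normalized reads in *Gfi1*+/+ and 1940, 2025 and 1870 in *Gfi1*cre/+ (log2 fold change -0.0057), with the low *Gfi1*+/+ replicate 1 and high replicate 3 of *Fgfr1* and *Fgfr2*. *Fgfrl1* had a log2 fold change of 0.0053. Of the other secreted ligands, 4 of 16 were listed and tested, and the remaining 12 were not analysed here. *Fgf9*, with the highest level per length of these, had 300, 232 and 385 normalized reads in *Gfi1*+/+ and 290, 315 and 290 in *Gfi1*cre/+. *Fgf8*, the inner HC ligand that acts on FGFR3 in pillar cell formation and likewise picked out after its values were seen, had 51.8, 44.0 and 40.1 in *Gfi1*+/+ and 49.6, 35.5 and 44.4 in *Gfi1*cre/+, with a 95% interval from -32.5% to 33.8%. Changes in *Fgf8* within that range are compatible with these values, and the smallest detectable change was not computed.

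The 4 intracellular FGF homologues (FGF11 to FGF14), which bind sodium channels and not receptors, had 2 genes higher and 2 lower, and *Fgf11*, with the highest level per length, had a log2 fold change of 0.017. Of the 11 other feedback and target genes tested, 3 were higher and 8 lower, with a median log2 fold change of -0.063. None had an unadjusted p under 0.05 in limma's test, where 3.04% of all genes did, and the lowest was 0.0562. Among them *Dusp6*, an ERK phosphatase and a common readout of FGF signalling, had 976, 1004 and 836 normalized reads in *Gfi1*+/+ and 907, 954 and 949 in *Gfi1*cre/+, a log2 fold change of 0.00082. Of the 21 adaptors and kinases 15 were higher and 6 lower, with a median log2 fold change of 0.027 and *Mapk3* (ERK1) at 0.037. Of the 11 heparan sulfate enzymes 10 were higher and 1 lower, with a median of 0.041 and *Sulf1*, a sulfatase that trims heparan sulfate, at 0.028. Neither list had a gene at an unadjusted p under 0.05 in limma's test.

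GFI1 binds DNA at sites with the core AATC, so the RefSeq promoters of the members (GRCm38.p6, from 250 bases before to 50 bases after a start site) were searched for AATC on both strands, that is, for AATC or GATT. Windows were found for 6 of the 10 members, 8 windows in all, and 5 of the 8 hold the core, as do 73.1% of the 32851 windows of all genes. *Spry1* and *Fgfr2* hold the most, 3 each, and are shown for that reason with AATC or GATT in capitals. In *Spry1* (chr3:37639697-37639996, plus strand) all 3 matches lie before the start site. In *Fgfr2* (chr7:130266759-130267058, minus strand) the same is true.
*Spry1*: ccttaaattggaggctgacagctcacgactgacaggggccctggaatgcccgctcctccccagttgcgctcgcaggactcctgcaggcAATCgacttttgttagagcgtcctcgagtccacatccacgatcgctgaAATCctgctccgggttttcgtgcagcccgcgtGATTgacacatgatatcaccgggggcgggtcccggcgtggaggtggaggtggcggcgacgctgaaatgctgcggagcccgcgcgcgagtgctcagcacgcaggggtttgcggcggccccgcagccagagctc
*Fgfr2*: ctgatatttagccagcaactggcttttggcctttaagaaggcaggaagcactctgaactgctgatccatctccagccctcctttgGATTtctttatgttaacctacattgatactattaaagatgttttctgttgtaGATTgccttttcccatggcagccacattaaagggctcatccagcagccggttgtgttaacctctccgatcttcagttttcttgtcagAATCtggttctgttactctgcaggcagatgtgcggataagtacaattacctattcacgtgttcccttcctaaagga
The ETS motif CCGGAA, searched as CCGGAA or TTCCGG, is in 1 of the 8 windows, that of *Spry2*, and in 14.9% of all windows. The matches describe letters, not bound sites, and both windows shown lie at RefSeq starts upstream of the principal transcripts given above. The genes shown had log2 fold changes of -0.023 (*Spry1*) and 0.024 (*Fgfr2*), and *Fgfr3* and *Fgf10*, whose windows hold no AATC, had -0.028 and -0.022.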

How the data were processed

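Total RNA of cochlear ducts was made into TruSeq libraries and sequenced as paired ends. Per the labels and the study's methods, the authors used TopHat for alignment to mm10. HTSeq-count then gave the uniquely mapped reads per gene, and a minimum of 40 reads was set on genes. Tool versions, the annotation and the strand setting are not given in the sources used here. The deposited signal is named quantile-normalized in the methods. In each column 100% of the values were, within rounding, whole multiples of 1 step, so the deposited signal holds whole reads scaled by 1 factor a library, and these reads were recovered.

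A gene was tested where 1 or more libraries reached 40 normalized reads. The test was limma's (version 3.58.1, R 4.3.3; lmFit, eBayes with a trend), on log2(normalized reads + 1), a scale that understates the change of genes with few reads, with genotype as the only term, two-sided, with Benjamini-Hochberg adjustment over all genes tested. Intervals are limma's 95% intervals. The p-values measure the spread between libraries, with a common variance for single-mouse and pooled libraries. edgeR (version 4.0.16) and DESeq2 (version 1.42.0) were run on recovered reads as alternatives (4 and 10 genes with an adjusted p under 0.05), beside other pseudocounts (0.1 and 10), minima, normalizations, variance models, the replicate number as a block, and each library left out. The fits were tested on simulated counts.

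The members and lists were chosen with earlier results of these data known. The genes named are the members, of each pathway list those with an unadjusted p under 0.05 or otherwise the highest level per length, and the 3 genes most like *Fgfr3*. Some items that these rules take in are not reported here. Of the identifiers, 14796 of 14865 matched GENCODE M21.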

Additional observations from a re-analysis of the deposited data

How the results depend on the processing

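Under 17 alternatives, 0 of the 10 members had an adjusted p under 0.05, and the lowest adjusted p of a member was 0.285 (*Fgfr2*, without *Gfi1*+/+ replicate 3). Of 170 member values, 152 kept their direction and 18 turned, in every member but *Fgf1* and *Spry4*, and the cause was not tested. The log2 fold change turned to 0.0042 for *Spry1* with quantile normalization, to 0.0073 for *Etv5* with median centring, and to 0.00565 for *Fgfr3* and 0.016 for *Etv5* with array weights. With each library left out it ran from -0.016 to 0.19 for *Fgfr1*, from -0.048 to 0.12 for *Fgfr2*, from -0.074 to 0.0061 for *Fgfr3*, from -0.15 to 0.090 for *Fgf10*, from -0.12 to 0.032 for *Spry1*, from -0.026 to 0.089 for *Spry2*, from -0.011 to 0.076 for *Etv4* and from -0.041 to 0.045 for *Etv5*. The sign turned without *Gfi1*+/+ replicate 1 for *Fgfr1*, *Fgfr2*, *Fgf10* and *Etv4*, without replicate 2 for *Spry1* and *Spry2*, and without replicate 3 for *Etv5*. It turned without *Gfi1*cre/+ replicate 1 for *Fgf10*, *Spry1*, *Spry2* and *Etv5*, without replicate 2 for *Spry1*, and without replicate 3 for *Fgfr3* and *Spry2*.

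The count of members at an unadjusted p under 0.05 ran from 0 to 2 with a library left out: 1 without *Gfi1*+/+ replicate 2 (*Fgf1*), where 3.79% of all genes passed, and 2 without *Gfi1*+/+ replicate 3 (*Fgfr1* and *Fgfr2*), where 16.2% did. The count of members whose genotypes did not overlap ran from 0 to 2 of 10 with a library left out: 2 without *Gfi1*+/+ replicate 2 (*Fgfr3* and *Fgf1*), against 16% of all genes, 2 without *Gfi1*+/+ replicate 3 (*Fgfr2* and *Spry4*), against 34.5%, and 2 without *Gfi1*cre/+ replicate 3 (*Fgf1* and *Spry1*), against 13.5%. The count of other pathway genes at an unadjusted p under 0.05 was 1 as reported. With a mean of at least 200 the count was 0 (2.21% of all genes passed), but *Fgfbp3* has too few reads to enter that fit. The count was 0 with quantile normalization (3.01% of all genes) and with DESeq2 (2.59%). It was 2 of 67 without a trend (3.57% of all genes) and 7 of 67 with array weights (11.5% of all genes). With a library left out it ran from 0 to 8 (8 without *Gfi1*+/+ replicate 3, where 16.2% of all genes passed). Without *Gfi1*cre/+ replicate 1 it was 3 of 67, where 2.16% of all genes passed. These were the feedback and target genes *Spred3*, *Phlda1* and *Etv1*, all lower in *Gfi1*cre/+ and named after their values were seen.

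The correlations of same-numbered deviations over genes were -0.0944, 0.107 and -0.0326, and not every library correlated best with its own number. With 3 libraries of each genotype, these values cannot show whether same-numbered libraries shared a litter or a day of preparation. With the replicate number as a block, 0 members and 0 other pathway genes had an unadjusted p under 0.05, against 3.2% of all genes. Without the block the count of other pathway genes was 1.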
